A study of Mus musculus with 18 samples.

Results

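Solute carriers are the largest family of membrane transporters, and a circular RNA is named after the gene whose exons it joins, its host. The hosts described here are the genes that the deposited tables name Slc followed by digits, apart from Slc4a4, Slc1a2 and Slc1a3. They were 245 of 14517 host genes on Illumina and 227 of 13505 on Oxford Nanopore (ONT), 196 of them on both platforms and 276 on either. Their circles numbered 2263 of 208914 on Illumina and 1467 of 166212 on ONT. Another 21 circles listed an Slc gene among several names and entered no host sum. A few names of this form belong to genes that are not carriers, such as Slc4a1ap, Slc9a3r1, Slc9a3r2, Slc7a6os and Slc2a4rg-ps.

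Circular RNA was measured in whole brains of male C57BL/6J mice aged 3 to 4 months. RNA was enriched for circles with RNase R, which digests linear RNA, and reverse transcribed with random primers, and the same amplified cDNA fed both platforms. The Adar1-2KO mice carried Adar1 E861A/E861A, Ifih-/-, Adar2-/- and Gria2 R/R, the Adar2KO mice carried Adar2-/- and Gria2 R/R, and the controls were wild type. ADAR1 and ADAR2 are the enzymes that edit adenosine to inosine in double-stranded RNA, and E861A removes the catalytic activity of ADAR1. Ifih1 encodes a sensor of double-stranded RNA, and the Gria2 R/R allele supplies the edited form of a glutamate receptor subunit that otherwise depends on ADAR2. Both mutants carry Adar2-/- and Gria2 R/R, so Adar1-2KO and Adar2KO differ in the Adar1 and Ifih alleles, whose effects cannot be told apart. There were 3 Illumina libraries per genotype, and 3, 3 and 2 ONT libraries of Adar1-2KO, Adar2KO and wild type.

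Solute carriers move ions, amino acids, sugars, metals and vitamins across the cell membrane and the membranes of organelles. In brain the sodium-calcium exchangers of the Slc8 family clear calcium after activity, and other families recycle transmitters, set chloride and carry metabolites between neurons and glia. A circle forms when the donor end of an exon is joined back to the acceptor end of the same or an upstream exon, and the reads over that back-splice junction count it. In brain the gene for sodium-calcium exchanger 1, Slc8a1, is known as a strong source of such a circle.

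The libraries held 1516772 to 4308264 back-splice reads on Illumina and 186594 to 673705 reads on ONT. Adar1-2KO replicate 3 stood apart, with the highest number of reads on each platform and yet 21736 Illumina circles, against 54244 to 76743 in the other 8 libraries. Its Illumina host profile had Spearman correlations of 0.774 to 0.787 with the others, which correlated with each other at 0.879 to 0.909. The read names place it on flow cells 5 and 6, Adar2KO replicates 1 and 2 mainly on flow cell 7 (90.13% and 95.84% of their reads), and the 3 wild type libraries, Adar1-2KO replicate 2 and most of Adar2KO replicate 3 on flow cell 1. The flow cell of Adar1-2KO replicate 1 was not analysed here. Slc circles took 1.30%, 1.33% and 0.873% of Illumina back-splice reads in Adar1-2KO brains, 1.43%, 1.46% and 1.36% in Adar2KO brains and 1.43%, 1.33% and 1.23% in wild type brains. The low value was again that of Adar1-2KO replicate 3. Neuron markers gave 1113 to 1652 CPM in every Illumina library, where CPM is reads scaled to 1e+06 back-splice reads after TMM scaling. Of the 6 microglia markers 2 had circles, with a sum of at most 6.21 CPM in any library. The other markers, Aif1, Csf1r, Cx3cr1 and P2ry12, were at 0 throughout. A marker at 0 had no circle listed, which does not measure its linear RNA. In bulk tissue fewer cells of a type and less RNA per cell cannot be told apart.

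The sequences below carry the main circles and are shown 5′ to 3′ on the transcript strand. They come from GENCODE M21 transcripts of GRCm38, whose exons were matched to the ONT isoforms of the circle by exon lengths within the same gene, and the positions are those of the deposited tables on GRCm39. The leading circles of Slc8a1 (chr17:81955238-81957067, minus strand, 1830 bases) and Slc8a3 (chr12:81361034-81362878, minus strand, 1845 bases) are each the second exon alone. Their coding parts align over 1761 bases with 69.8% identity. The last 60 bases before the junction follow, with the 14 positions that differ in capitals.
Slc8a1: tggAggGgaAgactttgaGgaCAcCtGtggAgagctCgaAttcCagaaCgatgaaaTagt
Slc8a3: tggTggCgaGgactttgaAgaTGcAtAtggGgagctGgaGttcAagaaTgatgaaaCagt

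Both exons hold the start codon of the exchanger, after 31 bases in Slc8a1 and 61 bases in Slc8a3, and neither holds the stop codon. Read round the circle from the start codon, the Slc8a1 exon has no stop codon in frame, and the Slc8a3 exon reaches one after 611 codons, of which 594 lie before the junction. This is a property of the sequence, and no protein was measured.

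Slc41a2, a magnesium transporter, makes several circles from 1 acceptor end. On Illumina 10 of its 35 circles shared the acceptor at position 83152653 of chromosome 10 and held 77.3% of its reads. The 4 leading ones end at different donors, shown here by the last 30 bases before the junction with the final 10 in capitals.
Slc41a2 exon 2: tctgctggcatggttttggaCATAGTGCAG
Slc41a2 exons 2 to 3: atgacgctggcttctcgattATCTACTGCA
Slc41a2 exons 2 to 6: ggataagtcagggtttgtacTCCTGTCTTG
Slc41a2 exons 2 to 8: ggattgttgtttacacgccaGTTATCAACG

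For 3 other hosts whose circle lies wholly in coding sequence, the junction itself is shown as the last 20 bases of the circle in lower case and its first 20 bases in capitals. Slc7a8 (chr14:54995896-54997202) joins exon 3 to exon 2, Slc30a7 (chr3:115772293-115786688) exon 8 to exon 3, and Slc9a9 (chr9:94567108-94595024) exon 4 to exon 2.
Slc7a8: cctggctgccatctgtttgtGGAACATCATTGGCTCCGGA
Slc30a7: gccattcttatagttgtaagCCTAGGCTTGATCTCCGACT
Slc9a9: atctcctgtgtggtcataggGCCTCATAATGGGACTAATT

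Exon 2 was a frequent first exon among Slc circles. Of the 77 Slc circles tested on ONT whose exons matched an annotated transcript, 34 (44.2%) began at exon 2 and carried 85.1% of the matched Slc reads, most of them from Slc8a1 and Slc8a3. Over all hosts the figures were 27.7% of 7621 matched circles and 43.4% of reads. The start codon lay inside 16 (20.8%) of the 77 Slc circles and 15.5% of the 7621. The median Slc circle had 4 exons and 619 bases, against 4 exons and 646 bases over all hosts. Exon numbers follow the matching coding transcript with most exons, so a short transcript model can give a number of its own, and these shares are descriptions with no test.

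The family's circular RNA was concentrated in few genes. Slc8a1 alone gave 41.1% of the 317501 Slc reads on Illumina, the first 2 hosts 53.0%, the first 10 hosts 73.0% and the first 20 hosts 84.0%. At the other end 59 hosts had fewer than 10 reads over the 9 libraries. Slc8a1 ranked 14 and Slc8a3 ranked 80 among all host genes by mean CPM. Exonic circles were 80.7% of Slc circles and held 97.4% of their reads, and 54.9% of Slc circles were seen in 1 library only, with 2.20% of the reads. Over all circles, which include those outside genes, 73.9% were exonic and 55.6% were seen in 1 library.

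**Figure D1:**
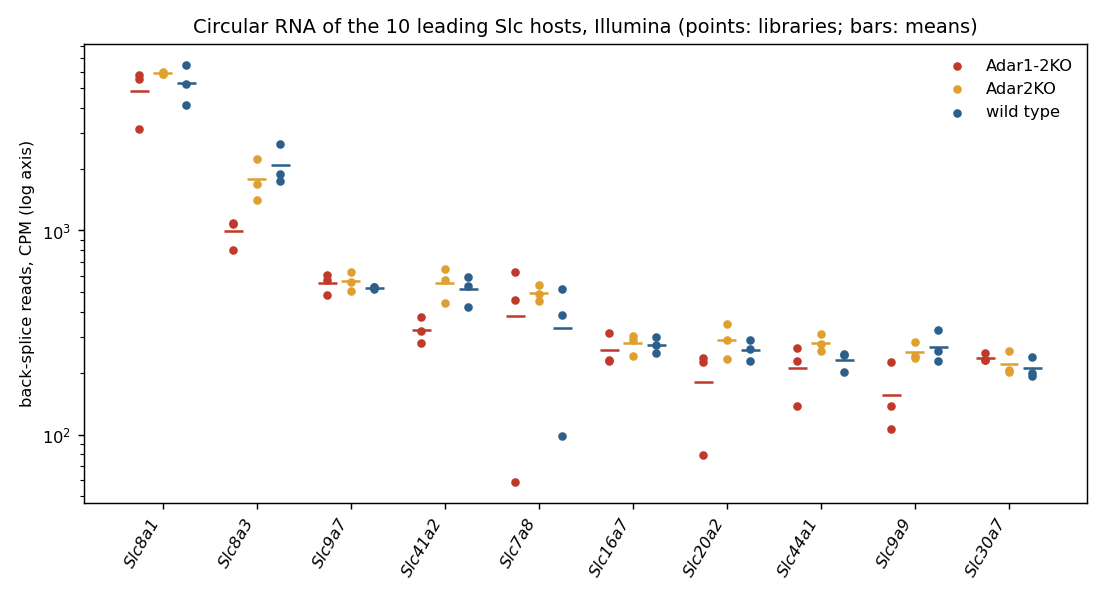
CPM of summed circles (log axis) for the 10 Slc hosts of highest mean, with 1 point per Illumina library and a bar at each group mean, for Adar1-2KO, Adar2KO and wild type. Slc8a1 lies between 3137 and 6480 CPM, above every other host, and the lowest group mean shown is 157 CPM, that of Slc9a9 in Adar1-2KO.

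Among the exchangers, Slc8a1 had 5547, 5788 and 3137 CPM in Adar1-2KO brains, 5839, 5870 and 5969 CPM in Adar2KO brains and 6480, 5197 and 4100 CPM in wild type brains on Illumina. The 3 groups overlapped, with the lowest value in Adar1-2KO replicate 3. Its main circle held 80.3% of its Illumina reads and 91.6% of its ONT reads. The junction ratio of this circle is the authors' share of circular among all reads at the circle's ends, here after RNase R. It averaged 91.4% ± 3.9 in Adar1-2KO, 92.5% ± 3.1 in Adar2KO and 88.5% ± 6.5 in wild type brains (SD, n = 3 each). A second set of Slc8a1 circles lies downstream and shares an acceptor at position 81753022. Its 3 leading circles, with donors at 81735611, 81715496 and 81696239, held 9.48%, 5.52% and 3.95% of the host's Illumina reads. On ONT the first of these was listed at 0, 0 and 215 reads in Adar1-2KO brains, 47, 0 and 0 reads in Adar2KO brains and 0 and 0 reads in wild type brains, while each Illumina library had 785 reads or more. On ONT the second-exon circle had 854 of the 1360 reads of Slc8a1 in Adar1-2KO replicate 3.

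Slc8a3, which encodes sodium-calcium exchanger 3, made nearly all its circular RNA as 1 circle, with 97.9% of its Illumina reads and 99.0% of its ONT reads. On Illumina it had 1077, 1093 and 807 CPM in Adar1-2KO brains, 1690, 2244 and 1410 CPM in Adar2KO brains and 1743, 2646 and 1882 CPM in wild type brains. On ONT it had 811, 1053 and 426 CPM in Adar1-2KO brains, 1434, 2190 and 1317 CPM in Adar2KO brains and 2048 and 1521 CPM in wild type brains. Every Adar1-2KO library lay below every other library on both platforms, which share the cDNA. The third exchanger of the family, Slc8a2, was low, with at most 57.7 CPM in any Illumina library. Its second exon is 691 bases long, and exon length was not tested against circle level. Slc24a2, a potassium-dependent exchanger, spread its reads over 55 Illumina circles, and its largest held 17.96% of them.

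Among the sodium-proton exchangers, Slc9a7 of the Golgi ranked 3 with 554 ± 62.8, 563 ± 59.6 and 525 ± 6.9 CPM in Adar1-2KO, Adar2KO and wild type brains (SD, n = 3 each). Its reads were divided over 43 circles, and the first of them (chrX:20052299-20055159) held 22.4%. The endosomal Slc9a9 had 157 ± 62.1, 254 ± 24.8 and 270 ± 48.9 CPM in the same order. Its main circle had 98, 95 and 4 reads in Adar1-2KO brains, 429, 271 and 400 reads in Adar2KO brains and 546, 222 and 201 reads in wild type brains. All 3 Adar1-2KO libraries were below the other 6, and the 4 reads were in replicate 3. This circle made up 40.7% of the host's reads. The next, chr9:95109241-95111253 with 33.4%, had 178, 141 and 614 reads in Adar1-2KO brains, 158, 109 and 180 reads in Adar2KO brains and 261, 135 and 87 reads in wild type brains, with the high value in replicate 3.

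Metal carriers held 7.05% of Slc reads on Illumina and 12.4% on ONT, where Slc41a2 ranked 3 among the hosts. Slc41a2 had 375, 321 and 280 CPM in Adar1-2KO brains, 569, 650 and 442 CPM in Adar2KO brains and 423, 592 and 537 CPM in wild type brains on Illumina. On ONT it had 698, 590 and 275 CPM in Adar1-2KO brains, 976, 1727 and 1568 CPM in Adar2KO brains and 2191 and 1747 CPM in wild type brains. The Adar1-2KO libraries were the lowest without overlap on both platforms, which share the cDNA. The zinc transporters Slc30a7 and Slc30a5 had 238 ± 10.7 and 89.0 ± 44.02 CPM in Adar1-2KO, 223 ± 29.9 and 98.5 ± 12.3 CPM in Adar2KO and 212 ± 25.7 and 109 ± 6.6 CPM in wild type brains (SD, n = 3 each).

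**Figure D2:**
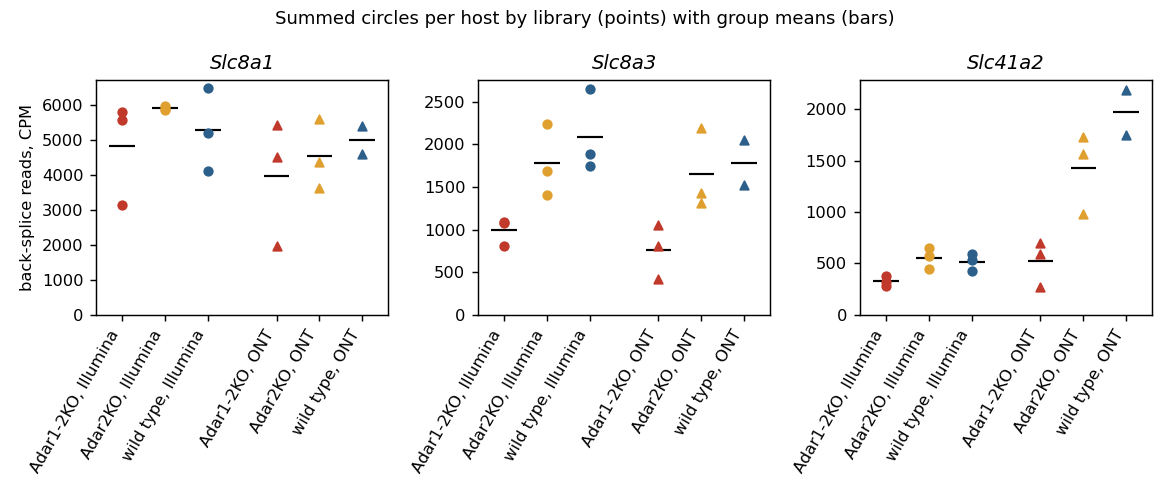
CPM of summed circles per library (points; circles Illumina, triangles ONT) with group means (bars) for Slc8a1, Slc8a3 and Slc41a2, in the order Adar1-2KO, Adar2KO and wild type on each platform. The Adar1-2KO points of Slc8a3 and Slc41a2 lie below all others of the same platform, and those of Slc8a1 overlap the other groups.

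Among the amino acid carriers, Slc7a8, a carrier of large neutral amino acids, varied between libraries of 1 genotype. Its main circle, 99.2% of the host's reads, had 1557, 1405 and 238 reads in Adar1-2KO brains, 1437, 1027 and 1506 reads in Adar2KO brains and 1205, 207 and 791 reads in wild type brains. The Adar1-2KO and the wild type group each held 1 library with far fewer reads. Slc38a1, a glutamine carrier, had 150 ± 48.1, 117 ± 75.8 and 144 ± 5.4 CPM in Adar1-2KO, Adar2KO and wild type brains (SD, n = 3 each). The circle that held 95.6% of its Illumina reads was not listed in any ONT library. Slc7a11, the cystine and glutamate exchanger, had 117 ± 55.9, 128 ± 21.96 and 97.7 ± 47.4 CPM.

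Carriers of lactate, sugars and choline were led by the monocarboxylate transporter Slc16a7, at 259 ± 49.2, 280 ± 32.1 and 275 ± 24.9 CPM in Adar1-2KO, Adar2KO and wild type brains, and the choline transporter Slc44a1, at 212 ± 65.7, 282 ± 26.5 and 232 ± 25.2 CPM (SD, n = 3 each). Slc45a4 gave 96.8% of its reads from its second exon and had 165 ± 51.1, 141 ± 51.9 and 144 ± 69.3 CPM. Chloride and bicarbonate carriers included the bicarbonate transporter Slc4a10, at 139 ± 23.98, 163 ± 17.6 and 162 ± 13.5 CPM from 120 circles, and the sodium-potassium-chloride cotransporter Slc12a2, at 88.3 ± 69.8, 119 ± 17.5 and 142 ± 4.6 CPM. Slc20a2, a phosphate transporter, had 182 ± 88.7, 291 ± 57.3 and 260 ± 30.6 CPM, and Slc33a1, which brings acetyl-CoA into the endoplasmic reticulum, had 148 ± 72.6, 98.1 ± 14.5 and 118 ± 9.1 CPM. The Adar1-2KO libraries of Slc33a1 had 130, 86.4 and 228 CPM, with the high value in replicate 3 and the others on both sides of the wild type range of 109 to 127 CPM. Slc35f5 led the nucleotide sugar family at 118 ± 85.9, 170 ± 30.5 and 152 ± 70.9 CPM, followed by Slc35b3 at 118 ± 129, 59.7 ± 6.0 and 62.2 ± 8.1 CPM. Slc35b3 had 73.6, 17.7 and 263 CPM in the Adar1-2KO libraries, against 54.7 to 70.8 CPM in wild type, so its high mean was that of replicate 3 alone.

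Hosts of transmitter uptake and vesicular filling held 1.83% of Slc reads. Slc1a2 and Slc1a3 belong to this role by family number but are outside the hosts described here, so the share leaves them out. The group was led by the lysosomal sialic acid carrier Slc17a5 at 71.3 ± 64.7, 39.1 ± 2.9 and 40.2 ± 6.5 CPM. Slc6a17 of synaptic vesicles followed at 40.2 ± 2.8, 45.3 ± 9.2 and 46.7 ± 7.1 CPM. Slc17a5 had 34.2, 33.7 and 146 CPM in the Adar1-2KO libraries, with the high value again in replicate 3 and the others just below the wild type range of 34.5 to 47.3 CPM. The mitochondrial carriers held 34 Illumina hosts, more than any other group, with 1.82% of Slc reads, led by the S-adenosylmethionine carrier Slc25a26 at 67.7 ± 19.1, 71.3 ± 10.9 and 62.3 ± 10.7 CPM and Slc25a27 at 22.5 ± 17.3, 41.5 ± 17.5 and 47.5 ± 13.5 CPM. Organic ion, vitamin and nucleoside carriers held 0.701%, led by Slc22a4 at 19.6 ± 15.5, 19.7 ± 11.5 and 18.2 ± 4.6 CPM and Slc22a15 at 11.9 ± 11.6, 25.9 ± 7.4 and 16.2 ± 4.2 CPM. All these values are for Adar1-2KO, Adar2KO and wild type brains in that order (SD, n = 3 each).

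The platforms ranked the hosts alike, with a Spearman correlation of 0.855 over the 72 hosts tested on both and 0.846 over 91 circles, given as descriptions since both platforms share the cDNA. The 5 Slc circles of highest mean ONT CPM were those of Slc8a1 (4123 CPM), Slc8a3 (1325 CPM), Slc41a2 exons 2 to 3 (421 CPM), Slc41a2 exon 2 (281 CPM) and Slc20a2 (241 CPM, chr8:23025035-23035616). Their Illumina means were 4285, 1580, 120, 84.5 and 218 CPM, so both Slc41a2 circles were relatively higher on ONT.

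**Figure D3:**
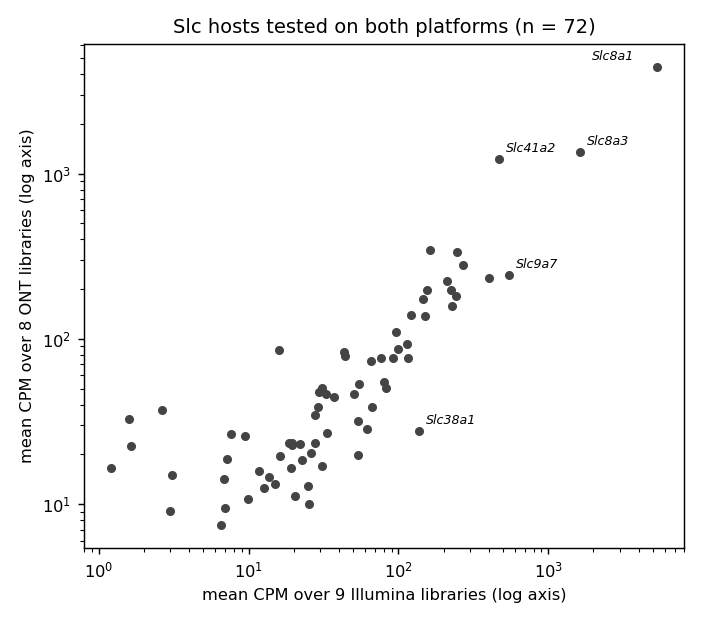
Mean CPM over 9 Illumina libraries against mean CPM over 8 ONT libraries (both axes log) for the 72 Slc hosts tested on both, 1 point per host. Slc8a1 and Slc8a3 are highest on both, Slc41a2 is higher on ONT, and Slc38a1 is lower on ONT.

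The effect of the genotypes was tested with edgeR's quasi-likelihood test on every host or circle that reached 5 reads in 3 or more libraries, with Benjamini-Hochberg adjustment over all features tested at 0.05. On Illumina 136 Slc hosts and 377 Slc circles were tested, and on ONT 81 hosts and 102 circles. In Adar1-2KO against wild type on Illumina 0 of 136 Slc hosts passed, beside 0.0954% of all 8382 hosts, and 0 of 377 Slc circles, beside 0.0627% of all 38297 circles. In Adar1-2KO against Adar2KO these were 0 hosts, beside 0.0477%, and 0 circles, beside 0.0209%. In Adar2KO against wild type they were 0 hosts, beside 0.0716%, and 0 circles, beside 0.0209%. At an unadjusted p under 0.05, 8, 8 and 1 Slc hosts and 27, 23 and 8 Slc circles were found in the 3 comparisons in that order, against 635, 546 and 150 hosts and 2580, 2443 and 698 circles in all. With so few calls over all hosts, a count of 0 among 136 does not set the Slc hosts apart. DESeq2 called Slc8a3 in Adar1-2KO against wild type, Slc15a2 in Adar1-2KO against Adar2KO and 0 hosts in Adar2KO against wild type, and for circles 2, 2 and 0. Over all features DESeq2 called 48, 36 and 13 hosts and 184, 183 and 33 circles in the same order. Both of its Slc circle calls were the same circles of Slc13a1 and Slc8a2, and that of Slc8a2 (chr7:15884266-15887219) had 0 reads in Adar1-2KO, 94, 0 and 0 in Adar2KO and 44, 11 and 16 in wild type brains. The 3 comparisons share groups, so their values are not independent.

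On ONT the counts were 0 of 81 hosts in Adar1-2KO against wild type, beside 0.038% of all 5265 hosts, 1 of 81 in Adar1-2KO against Adar2KO, beside 1.01%, and 0 of 81 in Adar2KO against wild type, beside 0.076%. Of the 102 circles 0 passed in any comparison, beside 0%, 0.492% and 0.00965% of all 10367 circles in the same order. Unadjusted, 7, 11 and 5 Slc hosts and 9, 18 and 3 Slc circles had p under 0.05, against 533, 680 and 312 hosts and 777, 1095 and 444 circles in all. DESeq2 called 2, 3 and 0 Slc hosts and 4, 3 and 0 Slc circles, against 63, 172 and 16 hosts and 50, 181 and 10 circles in all. DESeq2's host calls were Slc41a2 and Slc8a3 in both Adar1-2KO comparisons and Slc16a7 against Adar2KO, and its circle calls belonged to Slc41a2 and Slc8a3.

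The host that passed was Slc41a2, lower in Adar1-2KO than in Adar2KO brains on ONT by a log2 fold change of -1.46 ± 0.31 (SE, adjusted p = 0.0422, lower in 3 of 3 libraries). Without Adar1-2KO replicate 3 it was -1.13 ± 0.22 (adjusted p = 0.00823). Calls over all hosts then rose from 53 of 5265 to 178 of 4924, so the gain was not particular to Slc41a2. The call was lost when any other library was left out, with adjusted p between 0.0521 and 0.198, and also with the stricter read minimum or with only the 2 groups in the fit. Against wild type the ONT change was -1.93 ± 0.34 (adjusted p = 0.0588). On Illumina it was -0.77 ± 0.21 against Adar2KO (adjusted p = 0.624) and -0.67 ± 0.21 against wild type (adjusted p = 0.529). These shrank to -0.24 ± 0.27 against wild type with library sizes from mapped reads. Against Adar2KO the value was -0.46 among the 5 libraries mainly on flow cell 1, where 1 library of each mutant was compared. The exon 2 to 3 circle had ONT values of 115, 54 and 73 reads in Adar1-2KO brains, 120, 243 and 237 reads in Adar2KO brains and 156 and 128 reads in wild type brains. None of the 4 circles that share the acceptor passed by itself in edgeR, and their ONT fold changes against Adar2KO were -1.35 ± 0.34, -1.20 ± 0.40, -2.30 ± 0.76 and -1.58 ± 0.71, for exons 2 to 3, exon 2, exons 2 to 8 and exons 2 to 6. Summed Illumina reads of oligodendrocyte markers were 367, 377 and 524 CPM in Adar1-2KO brains, 302 to 376 CPM in Adar2KO brains and 291 to 318 CPM in wild type brains, from 7 of 8 genes with circles and Mog at 0. Endothelial and pericyte markers, 6 of 7 with circles and Pdgfrb at 0, gave 41.7, 48.3 and 85.0 CPM in Adar1-2KO, with the high value in replicate 3. They gave 19.6 to 30.7 CPM in Adar2KO and 32.1 to 41.7 CPM in wild type brains. Astrocyte markers, 6 of 8 with circles and Aqp4 and Ntsr2 at 0, gave 590, 611 and 417 CPM, 557 to 616 CPM and 512 to 552 CPM in the same order. Ependyma and choroid plexus markers gave 492, 524 and 758 CPM, 394 to 545 CPM and 450 to 558 CPM. Of these 7 genes 4 had circles, and Folr1, Foxj1 and Ttr were at 0. All these marker values are from Illumina. The part of these cell types in the change was not tested.

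Slc8a3 had the lowest p of the Slc hosts in Adar1-2KO against wild type on Illumina and did not pass. Its log2 fold change in Adar1-2KO was -1.08 ± 0.22 against wild type (adjusted p = 0.199) and -0.84 ± 0.22 against Adar2KO (adjusted p = 0.594), and on ONT -1.23 ± 0.33 (adjusted p = 0.201) and -1.12 ± 0.30 (adjusted p = 0.1004). In Adar2KO against wild type it was -0.23 ± 0.22 on Illumina and -0.12 ± 0.33 on ONT. Without Adar1-2KO replicate 3 the Illumina value against wild type was -0.95 ± 0.22 (adjusted p = 0.166). Among the 5 libraries mainly on flow cell 1, of which 1 is Adar1-2KO and 1 is Adar2KO and each is assumed to vary like the wild type, it was -0.92 ± 0.27 against wild type (adjusted p = 0.442) and -0.36 ± 0.31 against Adar2KO (adjusted p = 0.833). The main circle gave -1.01 ± 0.20 on Illumina (adjusted p = 0.150). The authors' deposited table gives this circle a log2 fold change of -0.79 with a standard error of 0.83 and an adjusted p of 0.911. Slc8a1 had -0.12 ± 0.23 against wild type and -0.29 ± 0.23 against Adar2KO on Illumina. Its Adar1-2KO to wild type value was 0.10 without replicate 3 and -0.62 ± 0.21 with CIRI2 reads (adjusted p = 0.294). The CIRI2 reads lack Adar1-2KO replicate 1, so the caller and the set of libraries both differ there.

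**Figure D4:**
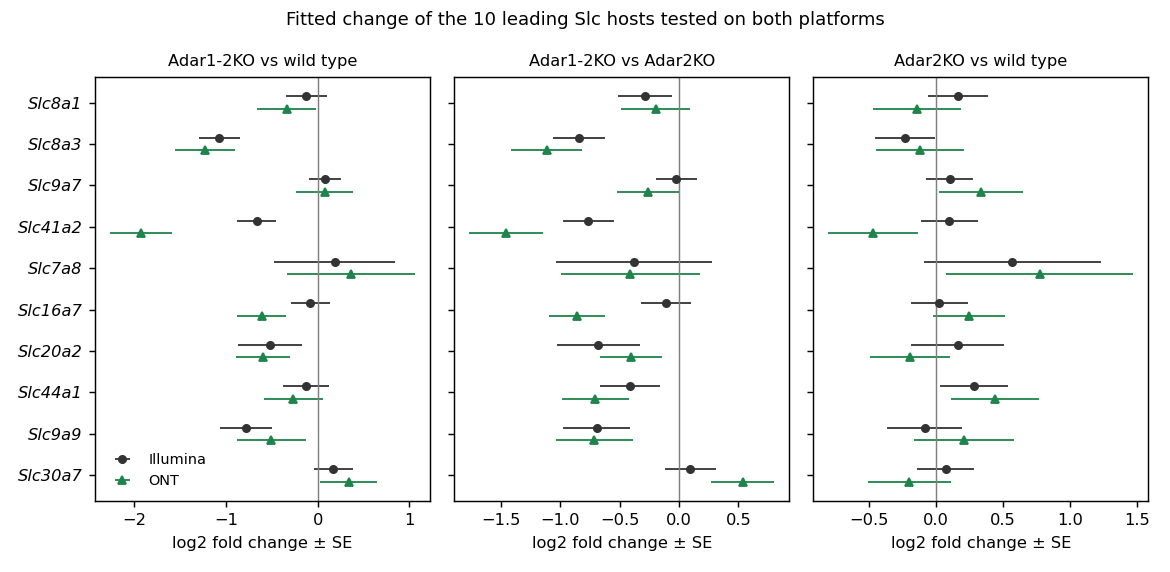
Fitted log2 fold change with its SE for the 10 leading Slc hosts tested on both platforms (circles Illumina, triangles ONT), for Adar1-2KO against wild type, Adar1-2KO against Adar2KO and Adar2KO against wild type. Slc8a3 and Slc41a2 lie left of 0 on both platforms in the first 2 panels, and Slc8a1 lies near 0.

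The remaining features with low p values were mostly scarce, and none passed. Slc15a2, a peptide transporter, was at 0 in all Adar1-2KO Illumina libraries, at 18, 15 and 20 reads in those of Adar2KO and at 13, 17 and 5 reads in those of wild type. Its adjusted p was 0.460 against Adar2KO and 0.436 against wild type in edgeR, and no fold is given for a group at 0. A circle of the sulphate transporter Slc13a1 (chr6:24105715-24111900) had 0 reads in Adar1-2KO, 19, 6 and 26 in Adar2KO and 8, 11 and 11 in wild type (adjusted p = 0.696 against wild type), and a circle of Slc4a10 (chr2:62080723-62099250) had 0 reads in Adar1-2KO, 5, 7 and 19 in Adar2KO and 5, 12 and 6 in wild type. For Slc9a9 the main circle had a log2 fold change of -2.48 ± 0.81 in Adar1-2KO against wild type (adjusted p = 0.718), and -1.89 ± 0.34 without Adar1-2KO replicate 3, the library with 4 reads (adjusted p = 0.128). Among the 5 libraries mainly on flow cell 1, of which 1 is Adar1-2KO, it was -1.65. The authors' deposited table gives -1.74 with a standard error of 0.87 and an adjusted p of 0.911. In Adar2KO against wild type Slc25a23, a calcium-regulated mitochondrial carrier, had 5, 6 and 2 reads against 0 in every wild type library, the taurine transporter Slc6a6 had 33, 49 and 50 reads against 5, 7 and 13, and Slc35e2 had 54, 49 and 70 against 52, 134 and 113. The main circle of Slc35e2 (chr4:155694296-155697194) had 27, 35 and 47 reads in Adar2KO against 42, 123 and 106 in wild type, a Slc37a3 circle (chr6:39334334-39343980) had 0 against 13, 10 and 13, and a second Slc30a7 circle (chr3:115772293-115778623) had 36, 68 and 70 against 17, 0 and 0. On ONT the lowest p values in Adar2KO belonged to Slc4a1ap (7, 5 and 8 reads against 0 and 0), Slc25a16 (11, 12 and 6 against 0 and 0) and Slc24a2 (0.62 ± 0.26, adjusted p = 0.803). In Adar1-2KO against wild type they belonged, after Slc41a2, to Slc4a1ap (16, 19 and 55 reads against 0 and 0) and Slc38a1 (12, 12 and 82 against 0 and 0), and against Adar2KO to Slc8a3, Slc16a7 (-0.86 ± 0.24, adjusted p = 0.114) and Slc38a10 (-1.46 ± 0.51, adjusted p = 0.208). On Illumina the wild type libraries had 111, 128 and 69 reads of Slc4a1ap. The 2 wild type ONT libraries held the fewest reads of the platform, 205273 and 186594. A host with ONT reads in wild type alone could not reach 5 reads in 3 libraries, while one at 0 in wild type could. The filter thus admits hosts at 0 in wild type but not the reverse.

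The tested Slc hosts had a median log2 fold change of -0.13 in Adar1-2KO against wild type, -0.27 against Adar2KO, and 0.16 in Adar2KO against wild type on Illumina, against -0.06, -0.09 and 0.01 over all hosts. On ONT the medians were 0.04, -0.34 and 0.25 against 0.14, -0.02 and 0.14. Illumina circles had medians of -0.29, -0.49 and 0.17 for Slc and -0.26, -0.31 and 0.04 over all. ONT circles had -0.16, -0.65 and 0.19 for Slc and 0.04, -0.21 and 0.18 over all. In Adar1-2KO against Adar2KO the fitted value was higher for 46 of 136 Slc hosts on Illumina, beside 44.2% of all hosts. On ONT it was higher for 30 of 81 hosts, beside 49.0%, and 24 of 102 circles, beside 41.8%. In Adar2KO against wild type it was higher for 78 of 136 hosts on Illumina, beside 51.0%, and 52 of 81 on ONT, beside 58.5%. These shifts were not tested. The fitted value in Adar1-2KO was above that in wild type for 61 of the 136 tested Slc hosts on Illumina, beside 46.97% of all hosts. By role, these were 3 of 7 hosts of sodium-calcium exchange, 2 of 6 of sodium-proton exchange, 3 of 11 metal carriers, 3 of 12 chloride and bicarbonate carriers and 6 of 16 carriers of sugars, lactate and choline. They were 5 of 12 carriers of phosphate, sulphate, fatty acids and peptides, 8 of 16 amino acid carriers, 8 of 15 hosts of transmitter uptake, 6 of 11 nucleotide sugar carriers, 4 of 7 carriers of organic ions and vitamins, 12 of 20 mitochondrial carriers, 0 of 2 others and the adaptor Slc4a1ap. No member of any role group passed on Illumina. Among other transport genes, 0 of 12 cation pumps, 0 of 13 lipid flippases, 0 of 19 ABC transporters, 0 of 10 subunits of the proton pump V-ATPase and 0 of 17 carriers outside the Slc names passed on Illumina in any comparison. On ONT 0 of 13, 0 of 8, 0 of 13 and 0 of 10 of the first 4 groups passed. Of the 9 carriers outside the Slc names, 1 passed in Adar1-2KO against Adar2KO, beside 1.01% of all 5265 hosts. A single call among 9 does not set that group apart.

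The circular share was tested with limma on the log2 ratio of back-splice to forward-splice reads for 61 Slc circles of 6353 whose back-splice and forward-splice reads summed to 20 or more in every library. None of the 61 passed in Adar1-2KO against wild type, Adar1-2KO against Adar2KO or Adar2KO against wild type, beside 0.0944%, 0.189% and 0.0787% of all circles, and 1, 3 and 2 had an unadjusted p under 0.05, against 306, 325 and 186 in all. The median change of the log2 ratio was -0.62, -0.96 and 0.36 for the 61 and -0.22, -0.44 and 0.20 over all, in the same order. The median junction ratio was 71.4% over the 61 and 73.3% over all 6353. RNase R removes linear RNA, so these ratios describe the treated libraries and not the balance in untreated brain. How far the digestion went in each library was not measured here, so it cannot be told apart from a change in share. The highest were 2 circles of Slc9a7 (chrX:20052299-20055159 and chrX:20025054-20071804), at 100% in all 9 libraries with no forward-splice read listed, so their tested ratio follows the pseudocount and the number of back-splice reads and says nothing of a change in share. Next came a Slc25a26 circle (chr6:94511125-94527586) at 98.1% on average. The lowest were circles of Slc35e2 (chr4:155694296-155695093, 3.59%), the anion exchanger Slc4a3 (chr1:75524588-75527579, 5.59%) and Slc6a17 (chr3:107398736-107408056, 9.58%). Slc6a17 had 9.0%, 6.1% and 2.8% in Adar1-2KO, 10.9%, 5.7% and 6.5% in Adar2KO and 31.6%, 7.0% and 6.6% in wild type brains, so 1 wild type library stood above the rest.

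**Figure D5:**
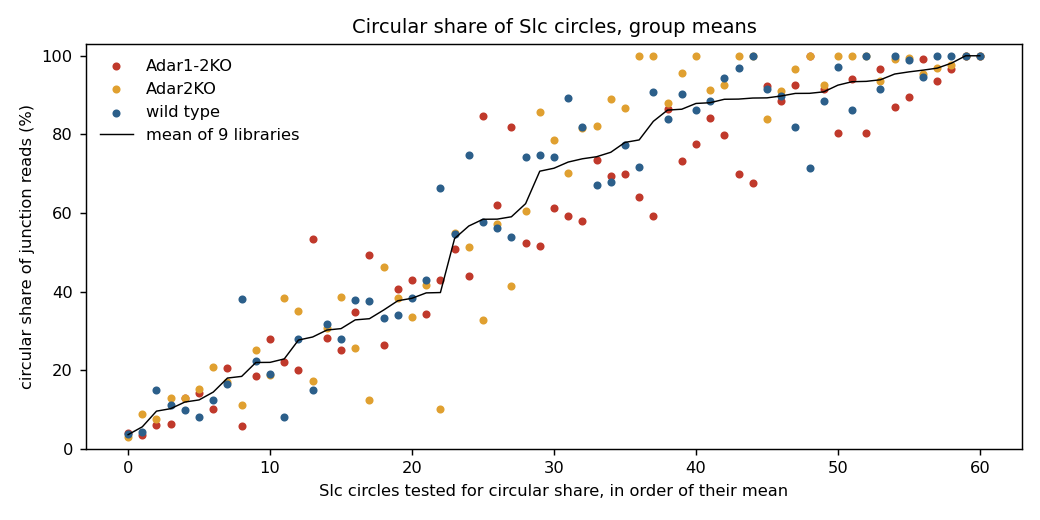
Circular share of junction reads in percent for the 61 Slc circles tested, in order of their mean over 9 libraries (line), with points for the means of Adar1-2KO, Adar2KO and wild type. The line runs from 3.59% to 100%, and the group means scatter around it on both sides.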

How the data were processed

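The authors' CIRIquant 1.1.2 tables of 9 Illumina libraries gave counts of back-splice and forward-splice reads per circle and a junction ratio, a deposited fraction from 0 to 1, per the file headers. Values of the Adar1-2KO tables stood 1 column right of their headers and were read there. The deposited CIRI2 tables (8 libraries) and ONT tables (8 libraries) hold counts of reads from 2 upward, and the ONT caller is not given in the sources used here. The CIRI2 reads used lack Adar1-2KO replicate 1. The submitters' processing notes name bcl2fastq, BWA 0.7.17, DESeq2 2.11.40.8 and GRCm39. In the authors' deposited comparisons, p-values before and after adjustment stand beside a log2 fold change, its error and a mean normalized signal. Wild type ONT replicate 1 was not analysed here.

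Counts were summed per host gene, circles that still had several host names without Gm genes and short RNAs entered no sum, and CPM is relative to back-splice reads after TMM scaling. Fits used edgeR 4.0.16 over all libraries of a platform, limma 3.58.1 for the circular share with a pseudocount of 0.5, and DESeq2 1.42.0 as an alternative. The edgeR and limma fits were run on simulated data, and the DESeq2 fits were not. The SE given with an edgeR log2 fold change is its absolute value divided by the square root of the F statistic of the quasi-likelihood test. The labels call the replicates biological; counting intervals were not used. PCR duplicates cannot be seen in these tables, and no strand-marking step is described, so antisense and overlapping hosts are uncertain. Hosts named were, by rule, the 20 of highest mean CPM (1 of them is not reported here), the first 2 of each role, those called, the 3 of lowest p per comparison, and the extremes of circular share and ONT level. Members and lists were chosen with earlier results of these data known.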

Additional observations from a re-analysis of the deposited data

How the results depend on the processing

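No Slc call on Illumina was made under most alternatives, and the exceptions follow. For hosts in Adar1-2KO against wild type, DESeq2 called 1 and no filter on low counts 3, and against Adar2KO 1 and 2. For circles these were 2 and 5 against wild type and 2 and 6 against Adar2KO. With no filter the counts over all were 171 and 143 of 14517 hosts and 434 and 372 of 208914 circles. For ONT hosts in Adar1-2KO against wild type, a threshold of 0.1 and DESeq2 size factors gave 1 each, DESeq2 2 and no filter 4. Against Adar2KO, DESeq2 gave 3, no filter 2, and a minimum of 10 reads or a fit of 2 groups 0. For ONT circles DESeq2 gave 4 and 3 and no filter 5 and 3, and no filter gave 1 in Adar2KO against wild type. Over all, no filter called 89, 177 and 35 of 13505 ONT hosts and 115, 197 and 83 of 166212 ONT circles in Adar1-2KO against wild type, Adar1-2KO against Adar2KO and Adar2KO against wild type, and DESeq2 50, 181 and 10 of 10367 circles. Leaving out 1 library gave 0 to 1 ONT hosts in both Adar1-2KO comparisons, the 1 being Slc41a2 without Adar1-2KO replicate 3, and 0 to 1 circles for the circular share of each mutant against wild type, the 1 being a circle of Slc9a7 (chrX:20052299-20071804) without wild type replicate 1, which leaves 2 wild type libraries with no forward-splice read. Without Adar1-2KO replicate 3 the ONT host calls over all were 62 against wild type and 178 against Adar2KO, of 4924. CIRI2 reads, which lack Adar1-2KO replicate 1, and mapped-read scaling gave 0 Slc calls. The 5 libraries mainly on flow cell 1 hold 1 of each mutant, so their count of calls is not given. The cause of these differences was not tested. Replicate numbers did not pair the samples (correlations of same-numbered deviations from -0.0614 to 0.0502), and with the replicate block the calls were 1 circle (Slc8a3) in Adar1-2KO against wild type on Illumina and 2 ONT hosts (Slc41a2 and Slc8a3) against Adar2KO.

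Small changes turned sign in places. In Adar2KO against wild type, with CIRI2 reads Slc35e2 was 0.18 (its main circle 0.16) and Slc8a1 -0.20, and Slc41a2 was -0.030 to 0.25 with 1 library left out, below 0 without Adar2KO replicate 2 and at -0.0072 without wild type replicate 1, and -0.22 in flow cell 1. Slc8a3 on ONT was -0.40 to 0.11, above 0 at 0.0035 without Adar2KO replicate 3 and 0.11 without wild type replicate 2. Slc8a1 in Adar1-2KO against wild type was -0.27 to 0.10 with 1 library left out, at 0.10 without Adar1-2KO replicate 3 and 0.062 without wild type replicate 1, 0.21 with mapped-read scaling and 0.15 in flow cell 1, and against Adar2KO on ONT -0.48 to 0.14, at 0.14 without Adar1-2KO replicate 3 and 0.0016 without Adar2KO replicate 2. The 109 Illumina hosts not tested had too few reads for a statement.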
